A study of Homo sapiens with 6 samples.

Results

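The genes described here are 9 genes of retinoid signalling and metabolism: the retinoic acid receptors RARA, RARB and RARG, the uptake receptor STRA6, the binding protein CRABP2, the enzymes DHRS3, DHRS9 and ALDH1A3, and the retinoic acid responsive gene TGM2. They were chosen by symbol, with earlier results of these data known. All 9 were found among the 59715 gene IDs of the count table. Poly(A) RNA was sequenced from HCT116, a human colorectal carcinoma cell line, to compare cells with a knockout of the histone H3K4 methyltransferase gene MLL4 (MLL4KO, 3 libraries) with cells wild type for it (MLL4WT, 3 libraries). Both kinds of cells were grown in the same medium with 10% serum, and the labels name no retinoid or other treatment. The labels do not say how the gene was knocked out, whether MLL4KO is 1 clone, or whether replicates were separate cultures, so the p-values measure the spread between these libraries, which may be technical.

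Retinoic acid is made inside cells from retinol, which STRA6 takes up from its carrier in blood and cellular binding proteins carry between enzymes. Retinol dehydrogenases oxidise retinol to retinaldehyde, DHRS3 reduces retinaldehyde back to retinol, and the retinaldehyde dehydrogenases, ALDH1A3 among them, make retinoic acid from it. Retinoic acid binds RARs, which pair with RXRs on DNA response elements and switch target genes on, and CYP26 enzymes clear it.

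In MLL4KO cells TGM2 was 3.54-fold higher, STRA6 was 3.96-fold lower, DHRS3 was 2.79-fold lower and ALDH1A3 was 1.38-fold lower than in MLL4WT cells. RARA, RARG and CRABP2 did not pass the test, and RARB and DHRS9 had too few counts to be tested. Of the 7 members tested by edgeR's quasi-likelihood test, 1 rose and 3 fell at a Benjamini-Hochberg adjusted p under 0.05 over all genes. Changes were common in the whole table, where 6021 of 14543 tested genes passed (41.4%), 2885 of them higher (19.8%) and 3136 lower (21.6%) in MLL4KO cells. Scaling by total counts alone gave 3706 rises and 2394 falls among all genes, and the same 1 rise and 3 falls among the members. At least 2-fold changes were rarer: 2.72% of all tested genes rose and 2.25% fell by that much, and TGM2, STRA6 and DHRS3 lay past it. As the members were chosen with earlier results of these data known, this contrast cannot show that large changes gather among them. In 4 of the 7 tested members the libraries of the 2 groups did not overlap, as in 52.5% of all tested genes.

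**Figure D1:**
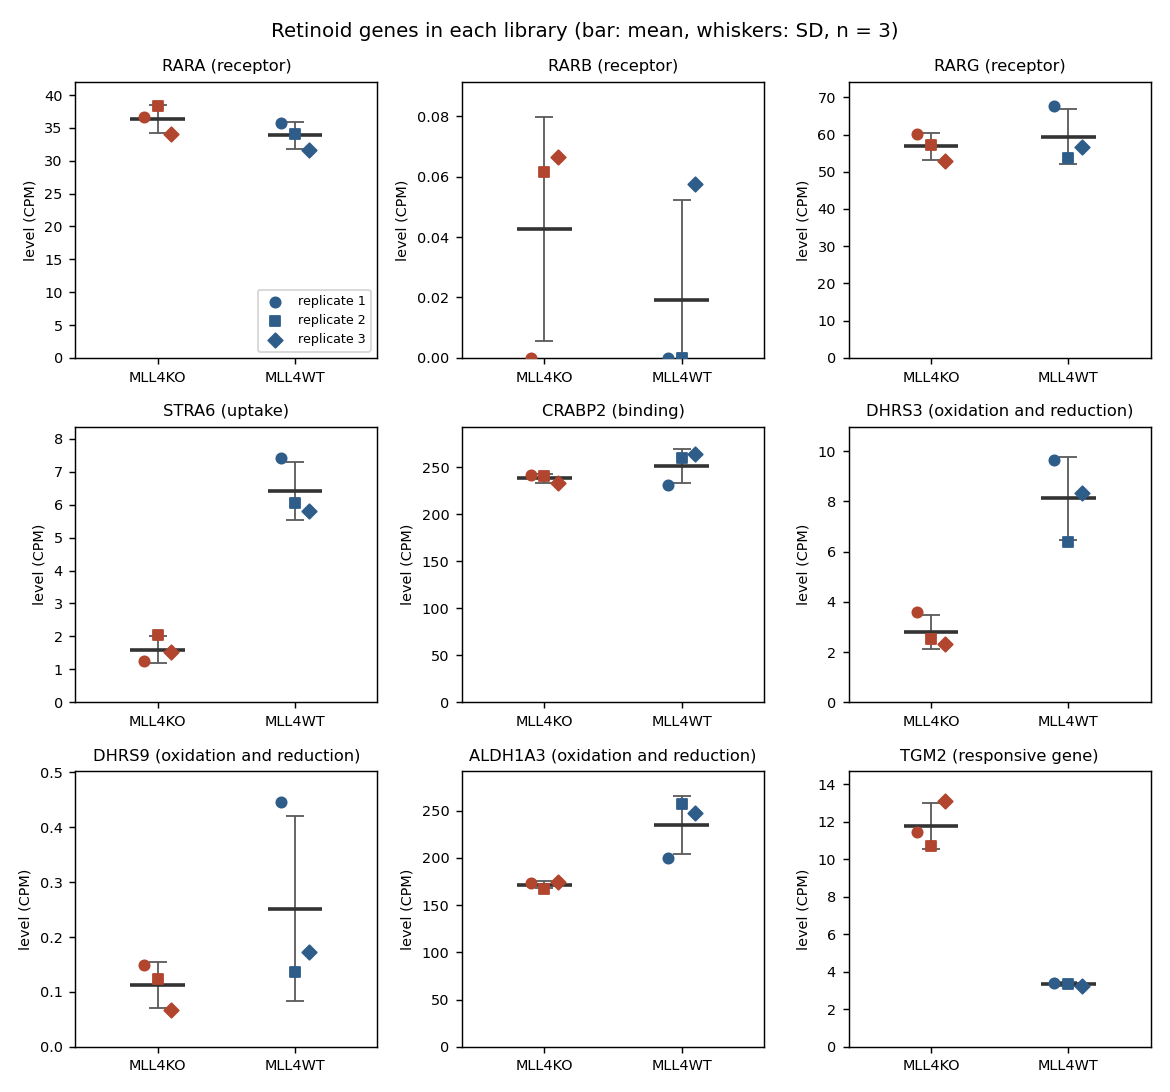
Level of each of the 9 members in CPM (vertical axis from 0, a scale of its own in each panel), MLL4KO left and MLL4WT right, 1 point per library with its shape giving the replicate, bars at the group means and whiskers of 1 SD (n = 3). The groups stand apart in TGM2, where MLL4KO is higher, and in STRA6, DHRS3 and ALDH1A3, where MLL4KO is lower, while they overlap in RARA, RARG and CRABP2.

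Levels are given as CPM, counts per 1000000 counts of the library after TMM scaling (the trimmed mean of M values). Library totals were 19736751, 15859813 and 14775580 counts in MLL4KO replicates 1 to 3, against 6829400, 15013035 and 17828774 counts in MLL4WT replicates 1 to 3. MLL4WT replicate 1 stood apart from the other libraries of its group, with chi-square values per degree of freedom of 7.36 and 7.49 against them, where all other replicate pairs lay between 1.85 and 2.46. Each column name carries a code that is read here as a flow cell code, though no label says so. By that reading this library is alone on its code. KMT2D, the gene usually called MLL4, had 232 ± 9.56 CPM in MLL4KO and 235 ± 4.60 CPM in MLL4WT cells (SD, n = 3 each), and as the labels do not say what was deleted, its count does not check them. KMT2B, for which the name MLL4 has also been used, fell to 63.2 ± 3.45 CPM in MLL4KO against 90.5 ± 3.44 CPM in MLL4WT cells (SD, n = 3 each; edgeR adjusted p = 2.33e-05), while KMT2C had an edgeR adjusted p of 0.832. Of 5 epithelial markers 4 fell (EPCAM, KRT8, KRT18 and KRT19), while CDH1 did not pass (edgeR adjusted p = 0.864). The summed level of all 5 was 1053 to 1073 CPM in MLL4KO and 1575 to 1640 CPM in MLL4WT libraries. Summed fibroblast markers were 31.2 to 35.3 CPM in MLL4KO and 30.0 to 32.2 CPM in MLL4WT libraries, with COL1A1 and PDGFRB higher and COL3A1 lower. Endothelial markers summed to 3.08 to 3.94 CPM in MLL4KO and 1.90 to 2.19 CPM in MLL4WT libraries. Leukocyte markers summed to 1.04 to 2.10 CPM in MLL4KO and 0.743 to 1.30 CPM in MLL4WT libraries, and CD3E was at 0 in every MLL4KO library. The part of these markers in the results below was not tested, and in bulk RNA fewer cells of a type and less RNA per cell cannot be told apart.

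Among the receptors, neither of the 2 that were tested passed the threshold. RARA (chr17:40309192-40357643 in GRCh38), the receptor found in most tissues, had 36.6, 38.3 and 34.0 CPM in MLL4KO replicates 1 to 3, against 35.8, 34.1 and 31.6 CPM in MLL4WT replicates 1 to 3. The groups overlapped, and the log2 fold change was 0.11 ± 0.07 (SE; edgeR adjusted p = 0.232). Removing the trends over GC content and length raised it to 0.21, with an edgeR adjusted p of 0.0177. The exons of RARA overlap those of RARA-AS1 on the other strand over 556 bases, 11.8% of their length, and the library kit is not stated to keep strand, so reads of the 2 genes cannot be told apart there.

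RARG (chr12:53210567-53232980), the receptor best known from skin, had 60.1, 57.3 and 53.0 CPM in MLL4KO libraries and 67.8, 53.8 and 56.6 CPM in MLL4WT libraries. The highest value was that of MLL4WT replicate 1, the shallowest library, and the remaining values of both groups lay among each other. Its log2 fold change of -0.04 ± 0.08 (SE; edgeR adjusted p = 0.722) became 0.05 without that library (edgeR adjusted p = 0.490).

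RARB (chr3:25174332-25597932), which retinoic acid itself is known to induce, was hardly counted: it had 0, 1 and 1 counts in the MLL4KO libraries and 0, 0 and 1 counts in the MLL4WT libraries. A total of 2 counts in MLL4KO against 1 in MLL4WT cells lies under the floor of 3 counts, so no difference was detectable at this depth. The promoter of RARB is shown because it holds the textbook response element of this pathway, a direct repeat with 5 spacer bases. It is chr3:25428013-25428262 on the plus strand, the 250 bases before a start site, from RefSeq on GRCh38.p14, with hexamers in capitals where they match AGGTCA, or AGTTCA, or GGGTCA, or GGTTCA on either strand.
RARB: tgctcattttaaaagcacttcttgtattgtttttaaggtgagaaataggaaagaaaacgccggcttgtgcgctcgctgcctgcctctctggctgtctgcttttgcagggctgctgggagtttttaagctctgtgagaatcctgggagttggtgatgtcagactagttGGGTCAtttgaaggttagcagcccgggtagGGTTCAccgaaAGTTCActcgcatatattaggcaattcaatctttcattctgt
The repeat is the last pair of capitals, at bases -53 to -37, where -1 is the base just before the start. Of the 9 members, all but TGM2 were matched in the RefSeq table of promoters (8 genes, 22 windows). A direct repeat of these hexamers with 5 spacer bases, searched on both strands, was in 1 of the 22 (this one) and in 31 of the table's 35116 windows (0.0883%). Repeats with 2 spacer bases were in 0.0399% of all windows and repeats with 1 in 0.131%, and no member's window held either. A single hexamer was in 10 of the 22 windows and in 38.6% of all windows, and the repeats overlap with this count. A match describes the letters of the window and does not show that a receptor binds there.

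Counted together, the 3 receptors were mostly RARG and RARA. RARA made up 37.9, 40.1 and 39.1% of their counts in the MLL4KO libraries, against 34.6, 38.8 and 35.8% in the MLL4WT libraries. The groups overlapped, and the difference of 2.60 percentage points gave p = 0.2 in an exact two-sided permutation test, where 3 libraries against 3 cannot go below 0.1.

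STRA6 (chr15:74179466-74212267), the membrane receptor that takes up retinol from plasma retinol-binding protein, was the member that fell furthest. It had 1.24, 2.03 and 1.53 CPM in MLL4KO libraries and 7.43, 6.04 and 5.80 CPM in MLL4WT libraries, which came from 25, 33 and 23 counts in MLL4KO and 50, 88 and 101 counts in MLL4WT libraries. Every MLL4KO library lay well under every MLL4WT library. The fall was 3.96-fold, which is -1.99 ± 0.21 on the log2 scale (SE; edgeR adjusted p = 1.94e-05), and by this measure STRA6 was number 131 of the 3136 genes that fell. Among libraries that share a flow cell code, the log2 difference was -2.22 between 1 MLL4KO and 1 MLL4WT library and -1.76 between 2 MLL4KO libraries and 1 MLL4WT library. On the other strand CCDC33 shares 540 bases with its exons (7.02%), and CCDC33 had 0 counts in MLL4KO and 3 in MLL4WT cells.

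A stretch before a start site of STRA6 is shown as the promoter of a gene that fell: chr15:74212278-74212481 on the minus strand, bases -222 to -19, from RefSeq on GRCh38.p14, with the same hexamers in capitals.
STRA6: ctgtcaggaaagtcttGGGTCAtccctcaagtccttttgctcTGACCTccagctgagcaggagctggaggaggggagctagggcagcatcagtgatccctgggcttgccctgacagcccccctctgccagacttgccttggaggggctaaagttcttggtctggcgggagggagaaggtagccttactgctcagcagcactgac
It holds 2 hexamers, at -206 and, on the opposite strand, at -180, which form none of the 3 repeats searched. The window of this start holds a further hexamer on the opposite strand at -22 to -17, which the end of the printed stretch cuts through. Of the other windows of STRA6 in the table, which has 5 for this gene, 1 holds a hexamer, at -124.

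CRABP2 (chr1:156699606-156705816), which carries retinoic acid to the receptors in the nucleus, was the most abundant member. It had 242, 240 and 233 CPM in MLL4KO libraries and 231, 259 and 264 CPM in MLL4WT libraries. MLL4WT replicate 1 lay below all MLL4KO libraries and the other 2 MLL4WT libraries lay above them. With all libraries the log2 fold change was -0.08 ± 0.05 (SE; edgeR adjusted p = 0.250). Without MLL4WT replicate 1 it was -0.13 with an edgeR adjusted p of 0.000649. With a term for the flow cell code it was -0.13 with an edgeR adjusted p of 0.000442. As MLL4WT replicate 1 is alone on its code, that term also takes it out of the comparison, so these are not separate checks. CRABP2 passed in only these 2 of the 17 alternatives listed at the end. Removing the trends over GC content and length turned its log2 fold change to 0.06 (edgeR adjusted p = 0.569), and total counts alone gave -0.02 (edgeR adjusted p = 0.792).

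DHRS3 (chr1:12567910-12617731), the retinaldehyde reductase that limits the supply for retinoic acid and is itself induced by retinoic acid in many cells, also fell. It had 3.58, 2.53 and 2.33 CPM in MLL4KO libraries and 9.66, 6.38 and 8.33 CPM in MLL4WT libraries, from 72, 41 and 35 counts in MLL4KO and 65, 93 and 145 counts in MLL4WT libraries. The highest MLL4KO value stayed below the lowest MLL4WT value. The fall was 2.79-fold, or -1.48 ± 0.20 on the log2 scale (SE; edgeR adjusted p = 0.000126), number 194 of the 3136 falls. Within flow cell codes the log2 differences were -1.22 and -1.39. The 250 bases before a start site of DHRS3 are shown for comparison with those above: chr1:12618211-12618460 on the minus strand, from RefSeq on GRCh38.p14.
DHRS3: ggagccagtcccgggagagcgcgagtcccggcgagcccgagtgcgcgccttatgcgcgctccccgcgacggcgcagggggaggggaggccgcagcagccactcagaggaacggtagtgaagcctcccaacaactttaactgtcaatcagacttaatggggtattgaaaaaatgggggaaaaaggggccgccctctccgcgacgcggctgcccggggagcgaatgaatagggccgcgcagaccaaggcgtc
None of the hexamers is in this window, which says only that these letters are not there. The table has 3 windows for DHRS3, and each of the other 2 holds 1 hexamer, at -171 on the opposite strand in one and at -172 in the other.

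DHRS9 (chr2:169064789-169096167), a dehydrogenase of the same family that can oxidise retinol, was barely counted. It had 3, 2 and 1 counts in MLL4KO libraries and 3, 2 and 3 counts in MLL4WT libraries. The ratio of MLL4KO to MLL4WT, corrected for depth, was 0.565 with an exact 95% counting interval of 0.162 to 1.86, which covers counting error only, so no difference was detectable at this depth.

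ALDH1A3 (chr15:100877714-100916626), which makes retinoic acid from retinaldehyde, fell by less but from a far higher level. It had 173, 167 and 175 CPM in MLL4KO libraries and 200, 257 and 247 CPM in MLL4WT libraries. The 3 MLL4KO libraries lay close together and below all MLL4WT libraries, of which replicate 1 was the lowest. The fall was 1.38-fold, or -0.46 ± 0.08 on the log2 scale (SE; edgeR adjusted p = 0.00121), number 1146 of the 3136 falls, and it was -0.55 without MLL4WT replicate 1. Within flow cell codes the log2 differences were -0.51 and -0.59. AC015712.2 on the other strand shares 1585 bases with its exons (27.5%), and it had 283 counts in MLL4KO and 242 counts in MLL4WT cells (edgeR adjusted p = 0.370).

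TGM2 (chr20:38127387-38166578), the tissue transglutaminase whose gene is a long-known target of retinoic acid, was the only member that rose. It had 11.4, 10.7 and 13.1 CPM in MLL4KO libraries and 3.42, 3.36 and 3.22 CPM in MLL4WT libraries, from 230, 174 and 197 counts in MLL4KO and 23, 49 and 56 counts in MLL4WT libraries. Each MLL4KO library held over 3 times the CPM of any MLL4WT library. The rise was 3.54-fold, or 1.82 ± 0.14 on the log2 scale (SE; edgeR adjusted p = 1.20e-06), number 79 of the 2885 rises. Within flow cell codes the log2 differences were 1.83 and 1.83. RPRD1B on the other strand shares 394 bases with its exons (4.90%), and RPRD1B had far more counts than TGM2. It had 3705 counts in MLL4KO and 2579 counts in MLL4WT cells (edgeR adjusted p = 0.135). The library kit is not stated to keep strand, and the part of RPRD1B reads in the TGM2 counts was not tested.

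**Figure D2:**
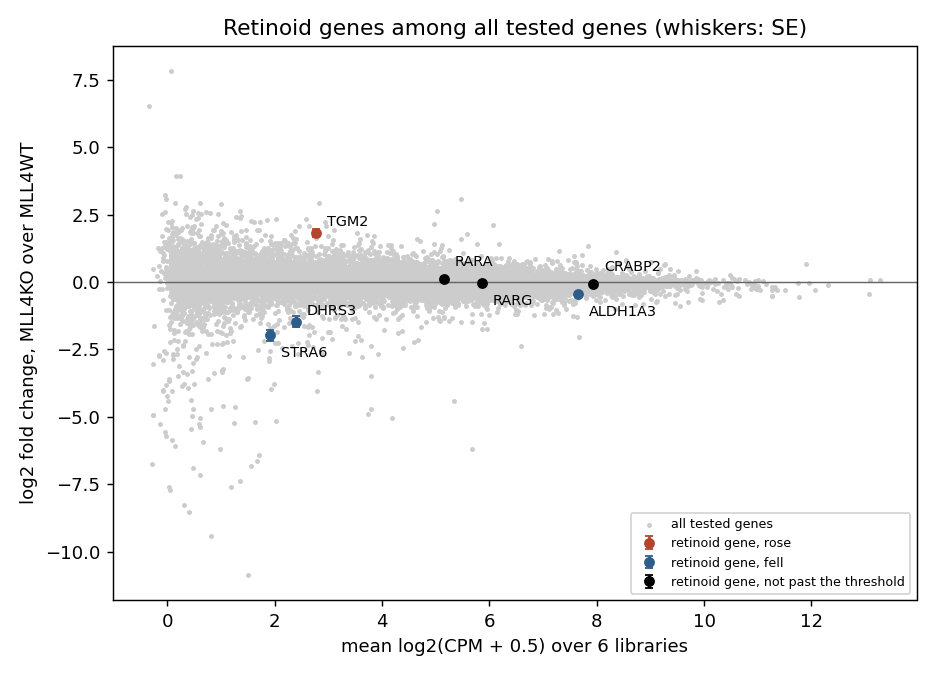
Log2 fold change of MLL4KO over MLL4WT against mean log2(CPM + 0.5) over the 6 libraries for all 14543 tested genes in grey, with the 7 tested members marked and whiskers of 1 SE. TGM2 lies at 1.82, STRA6 at -1.99 and DHRS3 at -1.48, all at lower mean levels than the other members, while CRABP2, RARA and RARG lie near 0 and ALDH1A3 at -0.46.

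The 59 other genes of the pathway in 5 lists did not move one way. Of them 32 were tested, 7 rose (21.9%) and 10 fell (31.2%), against 19.8% and 21.6% of all tested genes, and their median log2 fold change was 0.02, against -0.00 over all genes. Without MLL4WT replicate 1, 11 rose and 10 fell, and with total counts alone 10 rose and 9 fell. A further 11 were at 0 in every library, among them the receptor partner RXRG and the retinol-binding protein RBP2.

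In uptake, storage and carriage, 8 of 15 genes were tested, of which 3 rose and 3 fell, with a median log2 fold change of 0.08. The shares over all tested genes were 19.8% and 21.6%. RETSAT, the retinol saturase, rose 1.34-fold (edgeR adjusted p = 3.58e-05), with 87.7 ± 2.16 CPM in MLL4KO and 65.6 ± 1.16 CPM in MLL4WT cells (SD, n = 3 each). LRAT, which esterifies retinol for storage, also rose, but it did not pass without MLL4KO replicate 1 or 2 (edgeR adjusted p = 0.0630 and 0.0548) or in DESeq2 (adjusted p = 0.0645). BCO2, a carotenoid-cleaving enzyme, fell 3.28-fold, to 1.76 ± 0.640 CPM in MLL4KO against 6.01 ± 1.02 CPM in MLL4WT cells (SD, n = 3 each; edgeR adjusted p = 0.000193). SCARB1, a lipoprotein receptor that also takes up carotenoids, fell 1.29-fold (edgeR adjusted p = 0.00314), with 197 ± 4.39 CPM in MLL4KO and 254 ± 32.4 CPM in MLL4WT cells. MLL4WT replicate 1 was its highest library, and without that library the log2 fold change of SCARB1 went from -0.36 to -0.25. FABP5, which can carry retinoic acid to PPARD, had 154 ± 5.27 CPM in MLL4KO and 242 ± 44.6 CPM in MLL4WT cells (SD, n = 3 each; edgeR adjusted p = 0.00702).

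In oxidation and reduction, 9 of 18 genes were tested, of which 1 rose and 4 fell, with a median log2 fold change of -0.16. Of all tested genes 19.8% rose and 21.6% fell, and 9 genes are too few to read a lean from these counts. RDH10, the main enzyme of the first oxidation step in mouse embryos, fell 1.53-fold, to 27.5 ± 0.233 CPM in MLL4KO against 41.9 ± 1.17 CPM in MLL4WT cells (SD, n = 3 each; edgeR adjusted p = 1.16e-05). RDH13, a mitochondrial relative, fell 1.28-fold (edgeR adjusted p = 0.000993), with 35.5 ± 1.70 CPM in MLL4KO and 45.6 ± 1.73 CPM in MLL4WT cells. DHRS7 had 29.8 ± 0.785 CPM in MLL4KO and 34.9 ± 2.64 CPM in MLL4WT cells (SD, n = 3 each; edgeR adjusted p = 0.0175), and it did not pass without MLL4KO replicate 1 or 2 or MLL4WT replicate 2 (edgeR adjusted p = 0.0588, 0.0839 and 0.0989). AKR1C3, the fourth that fell, averaged only 0.193 CPM in MLL4KO and 1.26 CPM in MLL4WT cells, and it has near-identical relatives with which reads can be shared. RDH11, which reduces retinaldehyde, was just past the threshold, with 102 ± 3.91 CPM in MLL4KO and 93.0 ± 0.816 CPM in MLL4WT cells (SD, n = 3 each; edgeR adjusted p = 0.0473). With the replicate number as a block its edgeR adjusted p was 0.0593, and it missed the threshold when MLL4KO replicate 1, 2 or 3 or MLL4WT replicate 2 or 3 was left out (edgeR adjusted p = 0.0681, 0.173, 0.0638, 0.0851 and 0.0968).

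Both tested enzymes that clear retinoic acid missed the threshold. For CYP26A1 the log2 fold change was 0.07 (edgeR adjusted p = 0.840). CYP26B1 had 44.5 ± 3.11 CPM in MLL4KO and 39.5 ± 2.27 CPM in MLL4WT cells (SD, n = 3 each), with an edgeR adjusted p of 0.0656, which was 0.0120 without MLL4WT replicate 1. Of 11 receptor partners and cofactors 9 were tested, 2 rose and 0 fell, with a median log2 fold change of 0.05. Beside these counts, 19.8% of all tested genes rose and 21.6% fell. The 2 that rose were NCOR1, a corepressor of receptors without ligand (1.22-fold, edgeR adjusted p = 0.00390), and NCOA1, a coactivator (1.19-fold, edgeR adjusted p = 0.0101). NCOR1 had 40.2 ± 0.613 CPM in MLL4KO and 32.7 ± 1.71 CPM in MLL4WT cells, and NCOA1 had 37.5 ± 1.57 CPM in MLL4KO and 31.6 ± 1.20 CPM in MLL4WT cells (SD, n = 3 each). The receptor partner RXRA had an edgeR adjusted p of 0.154, and it was 0.0302 with total counts alone.

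Of 12 other genes known to respond to retinoic acid, 4 were tested: 1 rose and 3 fell, with a median log2 fold change of -0.95. GPRC5A, an orphan receptor gene first found as induced by retinoic acid, had 33.2, 33.5 and 33.6 CPM in MLL4KO libraries and 114, 113 and 110 CPM in MLL4WT libraries. The groups were far apart with almost no spread within them, a fall of 3.36-fold or -1.75 ± 0.05 on the log2 scale (SE; edgeR adjusted p = 4.11e-10). BHLHE40, a repressor of transcription, fell 1.49-fold (edgeR adjusted p = 9.60e-06), with 45.5 ± 1.82 CPM in MLL4KO and 67.6 ± 2.04 CPM in MLL4WT cells. RAI14 rose 1.44-fold (edgeR adjusted p = 4.40e-05), with 57.6 ± 1.44 CPM in MLL4KO and 39.7 ± 2.84 CPM in MLL4WT cells. The direction of TGM2 was thus shared by 1 and not shared by 3 of these 4, where 19.8% of all tested genes rose and 21.6% fell. With 4 genes this tally depends on which genes were listed, and it gives no direction for retinoic acid responsive genes as a whole.

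**Figure D3:**
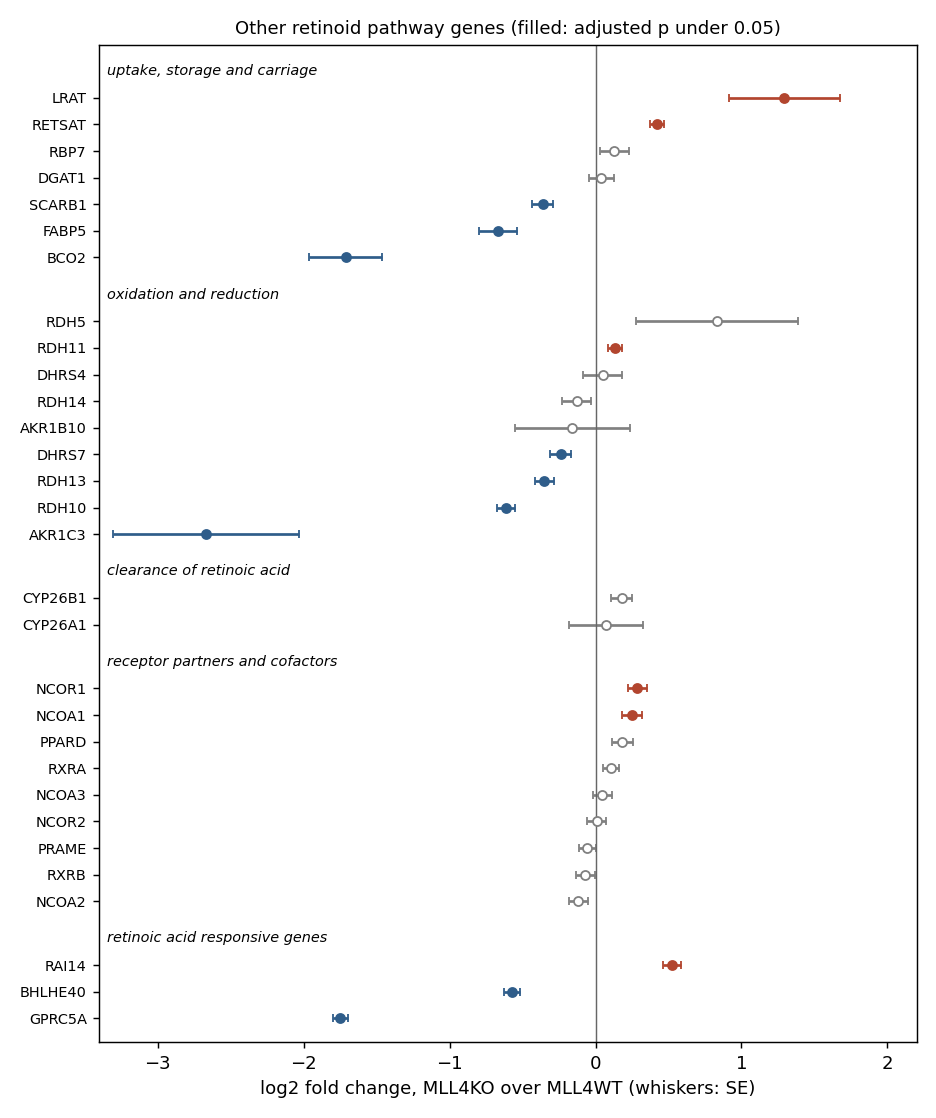
Log2 fold changes of MLL4KO over MLL4WT with standard errors for tested genes of the 5 pathway lists, grouped by list, with filled points where the edgeR adjusted p is under 0.05. Rises and falls stand side by side in every list but the receptor partners, where 2 rose and 0 fell, and clearance, where neither gene passed; GPRC5A fell by 1.75.

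Per kilobase of exon, CRABP2 was the most abundant member, at a mean of 217 CPM per kb in MLL4KO and 228 CPM per kb in MLL4WT cells. ALDH1A3 came next, with 29.8 CPM per kb in MLL4KO and 40.7 CPM per kb in MLL4WT cells. RARG and RARA followed in both groups, RARG at 11.1 CPM per kb in MLL4KO and 11.6 CPM per kb in MLL4WT cells, and RARA at 7.68 CPM per kb in MLL4KO and 7.15 CPM per kb in MLL4WT cells. The order of the next 3 differed: it was TGM2, DHRS3 and STRA6 in MLL4KO, and DHRS3, STRA6 and TGM2 in MLL4WT cells. TGM2 had 1.46 CPM per kb in MLL4KO and 0.415 CPM per kb in MLL4WT cells, DHRS3 had 0.926 in MLL4KO and 2.68 in MLL4WT cells, and STRA6 had 0.208 in MLL4KO and 0.835 in MLL4WT cells, all as CPM per kb. DHRS9 and RARB were last in both. Their libraries overlapped in MLL4KO but not in MLL4WT cells, and with at most 3 counts a library their order was not taken as resolved in either group. No other neighbours in this order overlapped between libraries of a group, and the ranks of the 7 tested members were the same when the length of the longest transcript was used.

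**Figure D4:**
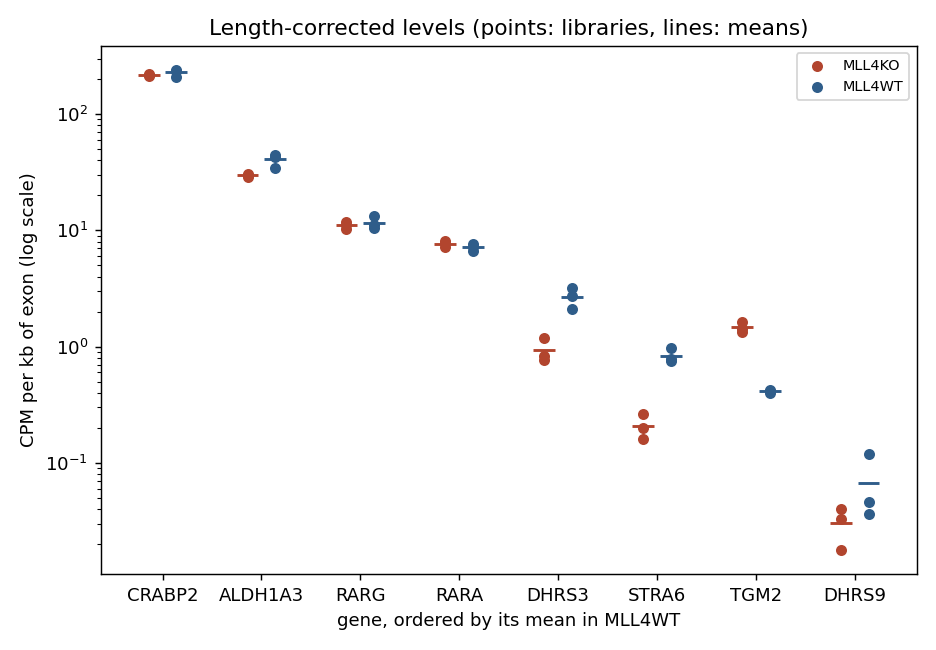
Level of each member except RARB, which had libraries at 0, in CPM per kilobase of exon (log axis), MLL4KO left of MLL4WT for each gene, 1 point per library with lines at the means and genes ordered by their mean in MLL4WT. CRABP2 is highest at 217 CPM per kb in MLL4KO and 228 CPM per kb in MLL4WT cells, and TGM2 ranks above DHRS3 and STRA6 in MLL4KO but below both in MLL4WT cells.

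Over the 6 libraries, 11148 genes with a mean of at least 5 CPM were compared with TGM2 and STRA6 by Pearson's r of log2 CPM. The genes most like TGM2 were MCM3AP, CTTNBP2 and USH1C, each with r = 0.999. Those most like STRA6 were RIPK2 (r = 0.998), NPIPB5 (r = 0.998) and TMEM18 (r = 0.997), and NPIPB5 belongs to a family of near-identical copies. The libraries form 2 genotype groups, so genes that differ between them in the same direction with little spread within the groups can score high. In all, 870 genes had r over 0.95 with TGM2 and 899 with STRA6.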

How the data were processed

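Poly(A) RNA of 6 HCT116 libraries, 3 MLL4KO and 3 MLL4WT by their labels, was measured. The authors deposited whole numbers per gene, taken here to be estimated counts that were not normalised, though neither the labels nor the table say which tool made them. Salmon 1.8.0, DESeq2 1.44.0 and hg38 are named, with no role, in the submitters' processing notes; the annotation release was not given in the sources used here.

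Genes were filtered with filterByExpr, scaled by TMM and tested with edgeR 4.0.16 (quasi-likelihood, robust, no covariate, 4 residual degrees of freedom) in R 4.3.3, with Benjamini-Hochberg adjustment over 14543 genes holding 99.9% of counts. The biological coefficient of variation was 5.62%, and the scripts were tested on simulated data. In the 6 libraries 3 counts, the floor for a count of 0, equal 0.149 to 0.446 CPM. DESeq2 1.42.0 and limma 3.58.1 were alternatives, with other scalings, filters, blocks and libraries left out. Symbols were matched for 55764 of 59715 IDs, and coordinates, exons and GC content came from GENCODE 29 for 56227.

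The members and lists were chosen with earlier results of these data known. Named genes were all 9 members, KMT2D, KMT2B and KMT2C, in each pathway list at most 2 rises and 2 falls of smallest adjusted p, and the 3 genes most like TGM2 and STRA6. LRAT, FABP5, DHRS7, AKR1C3, RXRA, RXRG, RBP2, PPARD, CYP26A1 and CYP26B1 were named after their values were seen. Some genes of the lists are counted but not reported here by name. Replicate numbers were not taken to pair libraries, since the deviations of same-numbered libraries correlated by 0.01 to 0.03.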

Additional observations from a re-analysis of the deposited data

How the results depend on the processing

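TGM2, STRA6, DHRS3 and ALDH1A3 kept direction and call in all 17 alternatives: 3 scalings, 2 filters, DESeq2, limma-voom, replicate block, flow cell term, thinning, GC and length correction, and each library left out. Their log2 fold changes ranged from 1.62 to 1.89, -2.19 to -1.81, -1.70 to -1.30 and -0.55 to -0.39. As MLL4WT replicate 1 is alone on its flow cell code, the flow cell term takes it out of the genotype comparison, as leaving it out does. These alternatives are therefore not separate checks. Members that rose numbered 2 after GC and length correction, which added RARA. Without 1 library, 1 member rose and 3 to 4 fell, 5 to 11 pathway genes rose (11 without MLL4WT replicate 1) and 9 to 10 fell, and over all genes 2163 to 3521 rose and 2316 to 3822 fell. The RARA share difference then ranged from 1.69 to 3.80 points. With the replicate block, 1 member rose and 3 fell, 6 pathway genes rose and 10 fell, and over all genes 2689 rose and 3024 fell, and the call of RDH11 was lost. DESeq2 gave 2062 rises and 2463 falls among 16075 genes. Other scalings moved the median log2 fold change by at most 0.06. The cause of these changes was not tested. Depth limits RARB and DHRS9.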
